A study of Mus musculus with 9 samples.

Results

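The genes described here make, phosphorylate or use nicotinamide adenine dinucleotide (NAD). They are the 10 rows of the table of counts whose Ensembl identifiers map to *Nampt*, *Nmnat1*, *Nmnat3*, *Naprt*, *Nadsyn1*, *Nadk*, *Cd38*, *Bst1*, *Nnmt* and *Sirt1*, out of 35275 genes listed. No measured value enters this rule. RNA was sequenced from 9 mammary gland tumors, 1 tumor per sample. All the mice carried the genotype Brca1Co/Co;MMTV-Cre;p53+/-, so the saline controls also had the conditional *Brca1* alleles, the Cre recombinase driven by the mouse mammary tumor virus promoter and the single working copy of *Trp53*. The tumors arose spontaneously in mice with an intact immune system, and the 3 tumors of a group came from 3 mice. Tumors A3673, A3685 and A3688 received saline. Tumors B3638, B3684 and B3700 received free Talazoparib i.v. (i.v. TLZ) at 0.33 mg/kg, and tumors C3519, C3669 and C3698 received the liposomal formulation NanoTLZ at 0.33 mg/kg. Treatment was 5 doses at 3 per week. No tumor treated with empty nanoparticles was sequenced here, so in NanoTLZ the carrier and the drug cannot be told apart. Ages were not given in the labels.

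NAD carries electrons in metabolism and is also cut up as a substrate. The poly(ADP-ribose) polymerases (PARPs), which Talazoparib inhibits, the sirtuins and the ectoenzymes Cd38 and Bst1 split NAD and release nicotinamide. Mammalian cells rebuild NAD from nicotinamide through Nampt and the Nmnat enzymes, from nicotinic acid through Naprt and Nadsyn1 (the Preiss-Handler route), or from tryptophan by the de novo route. Nadk adds a phosphate to give NADP, and Nnmt methylates nicotinamide and so withdraws it from salvage.

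No member passed the test in any comparison, with edgeR or with DESeq2. Levels are given as CPM, counts per 1000000 of the scaled library. Counts were scaled by the trimmed mean of M values (TMM) and compared with edgeR's quasi-likelihood test in 1 fit to all 9 tumors, with Benjamini-Hochberg adjustment over the 15821 genes tested and a threshold of 0.05 on the adjusted p. All 10 members passed the filter on low counts. The lowest member count was 13, for *Nnmt* in B3684, above a floor set at 3 counts. The smallest adjusted p over the members was 0.455 for i.v. TLZ against saline, 0.573 for NanoTLZ against saline and 0.355 for both treated groups against saline. For NanoTLZ against i.v. TLZ, every member had an adjusted p of 0.99994. Over all genes tested, the share called was 0%, 0.00632%, 0.019% and 0% in these comparisons. A count of 0 among 10 genes is therefore near the background, and it does not show that the genes were equal between groups. The unadjusted p was under 0.05 for *Naprt* alone, in i.v. TLZ and in both treated groups together, where 10.4% and 13.1% of all genes were under it. In the other comparisons no member was under it, against 8.99% of all genes for NanoTLZ against saline and 1.68% for NanoTLZ against i.v. TLZ. No member had all 6 treated tumors on 1 side of all 3 saline tumors, as 5.47% of all genes did.

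The median fitted log2 fold change of the members was 0.0012 in i.v. TLZ against saline, with 5 of 10 above 0, beside a median of -0.03 over all genes tested. For NanoTLZ against saline it was 0.25, with 6 of 10 above 0, beside -0.09 over all genes. For NanoTLZ against i.v. TLZ it was -0.16, with 3 of 10 above 0, beside -0.04. The 3 comparisons share tumors, so their values are not separate measurements.

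**Figure D1:**
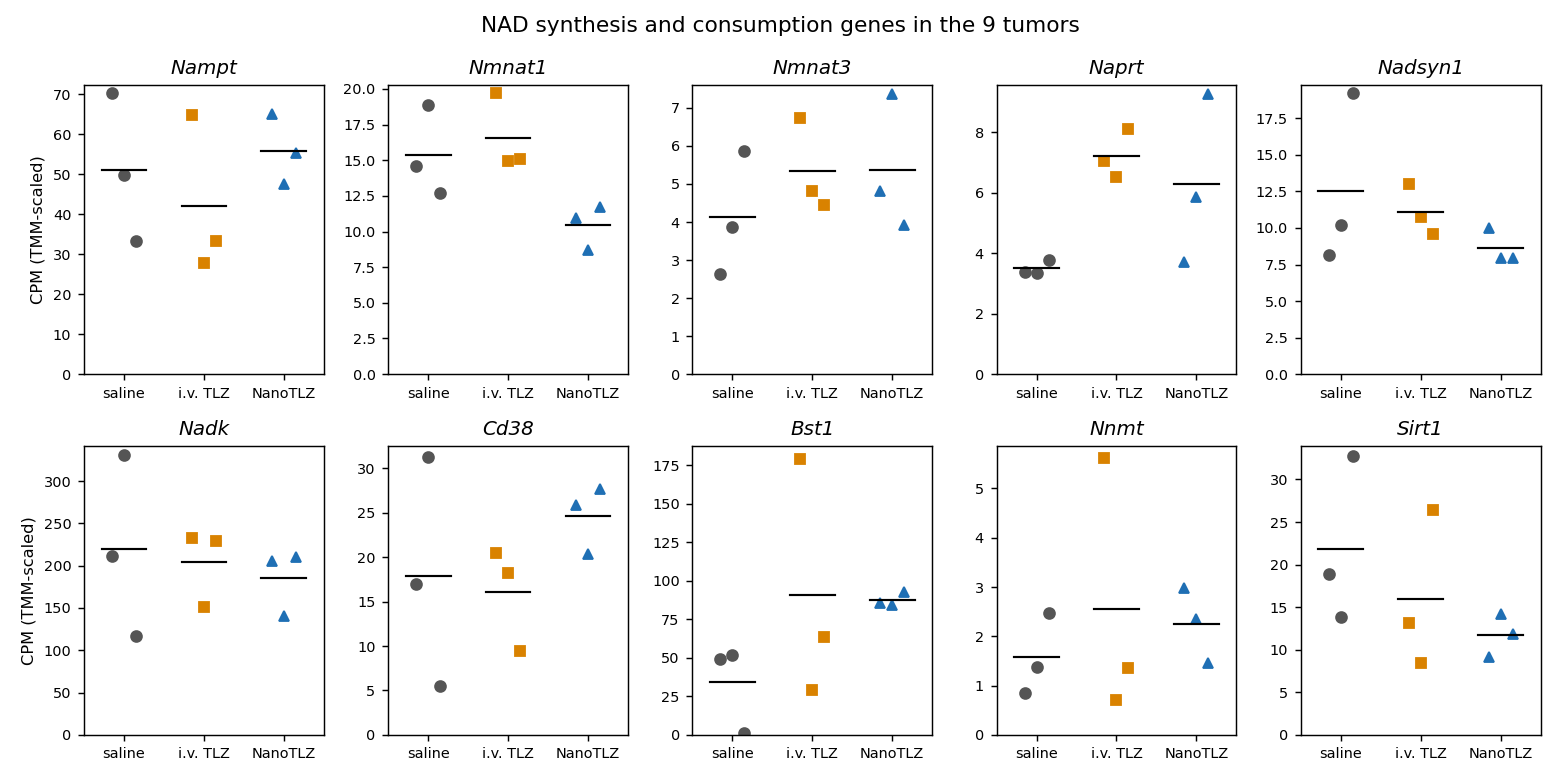
Level in CPM (counts per 1000000 of the TMM-scaled library, linear axis from 0) of the 10 members in each tumor, with points for single tumors and a black line for the mean of the 3 tumors of a group. The saline tumors of *Naprt* lie close together between 3.34 and 3.76 CPM, and 1 saline tumor of *Bst1* lies at 1.38 CPM.

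Between tumors, the members differed in how much they varied. The highest tumor was 2.27 times the lowest for *Nmnat1* and 2.84 times for *Nadk*, but 5.68 times for *Cd38*, 7.91 times for *Nnmt* and 130 times for *Bst1*. The biological coefficient of variation fitted within groups ran from 34.1% for *Nmnat1* to 78.0% for *Bst1*, and that of *Bst1* was above that of 91.7% of genes tested. Levels between genes were compared per kilobase of annotated exon. On that scale *Nadk* led with a mean of 54.2 CPM per kilobase (SD 16.9 over 9 tumors), followed by *Bst1* at 21.3 (SD 15.1) and *Nampt* at 9.84 (SD 3.08). *Nadk* was above *Bst1* in 9 of 9 tumors and *Bst1* above *Nampt* in 8 of 9, with A3688 as the exception. *Cd38* at 5.02, *Nmnat1* at 4.66, *Nadsyn1* at 3.25, *Sirt1* at 3.10 and *Naprt* at 2.41 CPM per kilobase formed the middle of the order. Within it, *Cd38* was above *Nmnat1* in 4 of 9 tumors and *Nadsyn1* above *Sirt1* in 5 of 9, so the order of those neighbours changed from tumor to tumor. *Nnmt* at 1.35 and *Nmnat3* at 0.987 CPM per kilobase were lowest. The depths were alike, with 17538380 to 21194980 counts per tumor.

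Saline tumor A3688 held the highest or the lowest value for 5 of 10 members and for 50.1% of all genes tested. It was the highest or lowest tumor for more genes than any other tumor, and the values without it are given with each member that it moved by over 1.5 times or turned. The labelled tissue was checked against 8 epithelial markers, whose summed level was between 4138 and 9343 CPM in the 9 tumors with none at 0. In A3688 the makeup of that sum differed, with *Krt5*, a basal keratin, at 1849 CPM where the others had 2.30 to 72.9 CPM. *Krt19* and *Krt7* were lowest there, at 31.2 and 76.2 CPM, where the others had at least 173 and 540 CPM. The other markers of the list did not all stand apart in A3688. *Krt14*, *Krt8*, *Krt18* and *Epcam*, at 802, 955, 646 and 790 CPM, lay within the range of the other tumors. *Cdh1* was lowest in A3688, at 359 CPM. *Krt5*, *Krt19* and *Krt7* were picked after their values were seen, and their part in the values of A3688 was not tested. The transcript of *Brca1* was present in every tumor, at 29.6 to 42.7 CPM after saline and 9.46 to 31.5 CPM after treatment, and *Trp53* was between 23.4 and 108 CPM. Counts per gene do not resolve the deleted part of either gene and so check no genotype.

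The Preiss-Handler route held the member with the smallest p. *Naprt* encodes nicotinate phosphoribosyltransferase, the first enzyme of that route (ENSMUSG00000022574, minus strand of chr15:75890956-75894481 in mm10). It was at 3.38, 3.34 and 3.76 CPM in saline tumors A3673, A3685 and A3688, at 7.03, 6.51 and 8.12 CPM in i.v. TLZ tumors B3638, B3684 and B3700, and at 3.71, 5.84 and 9.26 CPM in NanoTLZ tumors C3519, C3669 and C3698. All the i.v. TLZ tumors lay above all the saline tumors, while NanoTLZ tumor C3519 lay among the saline tumors. It was 1 of 10 members whose i.v. TLZ tumors all lay above saline, where 5.99% of all genes tested did so.

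The mean of *Naprt* was 3.49 ± 0.235 CPM in saline, 7.22 ± 0.821 CPM in i.v. TLZ and 6.27 ± 2.80 CPM in NanoTLZ (SD, n = 3 each). As a fitted log2 fold change, here called the log2 ratio, this was 1.05 (SE 0.43, 95% interval 0.09 to 2.003) with i.v. TLZ, with an adjusted p of 0.455 from edgeR, and 0.84 (SE 0.43, -0.11 to 1.80) for NanoTLZ. For both treated groups together it was 0.94 (SE 0.38), with an unadjusted p of 0.0337 and an adjusted p of 0.355 from edgeR. The value did not pass the threshold. With each tumor left out in turn, the fitted difference of both treatments from saline was between 0.77 and 1.08, in fits that share most tumors. For both treated groups together, the unadjusted p of *Naprt* from edgeR was not under 0.05 without A3673, A3685, B3700 or C3698. For i.v. TLZ it was not under 0.05 without A3673, A3685, B3638 or B3700, nor with edgeR on the groups compared. In neither comparison was it under 0.05 without the filter on low counts. *Naprt* shares 277 exon bases on the same strand with *Eef1d*, a translation elongation factor gene, so reads there cannot be assigned with certainty. *Eef1d* had 36016 counts over the 9 tumors against 988 for *Naprt*, and its log2 ratio was -0.32 with i.v. TLZ and -0.14 for NanoTLZ.

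*Nadsyn1* encodes NAD synthetase, the last enzyme of the Preiss-Handler route. It was at 8.18, 10.2 and 19.2 CPM in saline, at 13.0, 10.8 and 9.58 CPM in i.v. TLZ, and at 9.96, 7.91 and 7.97 CPM in NanoTLZ. The groups overlapped, and A3688 was the highest tumor. For *Nadsyn1*, the log2 ratio was -0.17 (SE 0.39) with i.v. TLZ and -0.54 (SE 0.40) for NanoTLZ, and without A3688 these values were 0.28 and -0.07.

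Nicotinamide salvage was represented by *Nampt*, its rate-limiting enzyme, and by *Nmnat1* and *Nmnat3*. *Nampt* was at 70.3, 49.9 and 33.3 CPM in saline, at 64.8, 27.9 and 33.3 CPM in i.v. TLZ, and at 65.0, 47.6 and 55.3 CPM in NanoTLZ. Each group spanned much of the same range. For *Nampt*, the log2 ratio was -0.28 (SE 0.38, 95% interval -1.14 to 0.57) with i.v. TLZ and 0.13 (SE 0.38, -0.72 to 0.98) for NanoTLZ. Without A3688 they were -0.51 and -0.073.

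*Nmnat1*, the nuclear adenylyltransferase that completes NAD, was the member in which NanoTLZ stood on 1 side of both other groups. It was at 14.6, 18.9 and 12.7 CPM in saline, at 19.7, 14.9 and 15.1 CPM in i.v. TLZ, and at 10.9, 8.68 and 11.7 CPM in NanoTLZ. All the NanoTLZ tumors lay below all the saline tumors and below all the i.v. TLZ tumors. It was 1 of 10 members to do so, where 8.13% of all genes tested lay below saline and 4.41% below i.v. TLZ. Its log2 ratio was -0.56 (SE 0.32, 95% interval -1.26 to 0.15) for NanoTLZ against saline. Against i.v. TLZ it was -0.67 (SE 0.32, -1.37 to 0.04), with an unadjusted p of 0.062 and an adjusted p of 0.99994 from edgeR. For i.v. TLZ against saline it was 0.11 (SE 0.32), and -0.0040 without A3688.

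*Nmnat3*, the adenylyltransferase placed in mitochondria, was at 2.63, 3.86 and 5.87 CPM in saline, at 6.74, 4.81 and 4.44 CPM in i.v. TLZ, and at 4.81, 7.37 and 3.93 CPM in NanoTLZ. The groups overlapped. For *Nmnat3*, the log2 ratio was 0.37 (SE 0.46) with i.v. TLZ and 0.38 (SE 0.46) for NanoTLZ, and the values of the treatments differed by 0.01 (95% interval -1.02 to 1.04). Without A3688 the values against saline were 0.72 and 0.75.

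*Nadk*, the cytosolic NAD kinase, was at 211, 331 and 117 CPM in saline, at 233, 151 and 229 CPM in i.v. TLZ, and at 205, 140 and 211 CPM in NanoTLZ. The saline tumors alone spanned the values of all the treated tumors. For *Nadk*, the log2 ratio was -0.11 (SE 0.39, 95% interval -0.96 to 0.75) with i.v. TLZ and -0.24 (SE 0.39, -1.10 to 0.61) for NanoTLZ. Without A3685 the values were 0.31 and 0.18, and without A3688 they were -0.40 and -0.52.

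Among the members, *Bst1* (CD157, an ectoenzyme of bone marrow stroma and myeloid cells that splits NAD) varied most. *Bst1* and *Cd38* are neighbours on chromosome 5 with the same strand and related products, at chr5:43818885-43843986 and chr5:43868553-43912375 in mm10. *Bst1* was at 49.0, 51.8 and 1.38 CPM in saline, at 179, 29.2 and 63.3 CPM in i.v. TLZ, and at 85.7, 84.4 and 92.7 CPM in NanoTLZ. The NanoTLZ tumors lay close together and above all the saline tumors, while the i.v. TLZ tumors lay on both sides of them. *Bst1* was 1 of 10 members whose NanoTLZ tumors all lay above saline, where 7.82% of all genes tested did so. A3688 had 30 *Bst1* counts, and the other tumors had at least 534.

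The log2 ratio of *Bst1* was 1.41 (SE 0.97, 95% interval -0.76 to 3.58) with i.v. TLZ and 1.36 (SE 0.97, -0.80 to 3.53) for NanoTLZ. Without A3688 these values were 0.85 and 0.83, and without B3638 the value for i.v. TLZ was 0.44. The treatments differed by -0.05 (95% interval -2.17 to 2.08), an interval that leaves room for large differences in either direction. *Bst1* also shares 98 exon bases with *Fbxl5* on the opposite strand, and the strand setting of the counting is not given in the sources used here. *Fbxl5* had a log2 ratio of -0.20 with i.v. TLZ and -0.06 for NanoTLZ, and the assignment of the shared reads was not tested.

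*Cd38*, the main NAD glycohydrolase of many tissues and an antigen of immune cells, was at 16.9, 31.3 and 5.51 CPM in saline, at 20.5, 18.3 and 9.41 CPM in i.v. TLZ, and at 25.9, 20.4 and 27.6 CPM in NanoTLZ. The groups overlapped, and A3688 was lowest here as it was for *Bst1*. For *Cd38*, the log2 ratio was -0.16 (SE 0.55) with i.v. TLZ and 0.46 (SE 0.55) for NanoTLZ, and without A3688 these values were -0.58 and 0.056.

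Cell markers were set beside these genes. The summed level of 8 macrophage markers was 808, 3206 and 808 CPM in the saline tumors, 3308, 1935 and 3657 CPM in the i.v. TLZ tumors and 4767, 5253 and 4295 CPM in the NanoTLZ tumors, with none of the 8 at 0 in any tumor. The NanoTLZ sums all lay above the others, and 3 of the 8 markers did so gene by gene against saline, where 7.82% of all genes did. The separation of the sums rested on *Lyz2*, at 3262, 3642 and 2260 CPM in C3519, C3669 and C3698. In the other tumors *Lyz2* was at 192 to 2211 CPM. Summed without *Lyz2*, saline tumor A3685 lay above C3519 and C3669. The sum of 6 T and NK cell markers was 4.01 to 10.5 CPM in saline, 2.19 to 18.0 CPM in i.v. TLZ and 14.1 to 30.5 CPM in NanoTLZ. Of these, 2 of 6 were above saline gene by gene in NanoTLZ, and *Ncr1* was at 0 in all tumors except C3669. The sum of 6 neutrophil markers was 9.86 CPM in A3688, the lowest tumor, and between 40.9 and 224 CPM in the others, with *Ngp* at 0 in A3688 and C3669. The part of these cells in the *Bst1* and *Cd38* values was not tested. In RNA from whole tumors, fewer cells of a type and less RNA per cell cannot be told apart.

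*Nnmt*, nicotinamide N-methyltransferase, was at 0.858, 1.38 and 2.48 CPM in saline, at 5.62, 0.711 and 1.35 CPM in i.v. TLZ, and at 2.98, 2.35 and 1.45 CPM in NanoTLZ, from 13 to 116 counts per tumor. The i.v. TLZ group held both the highest and the lowest tumor. For *Nnmt*, the log2 ratio was 0.70 (SE 0.77) with i.v. TLZ and 0.52 (SE 0.77) for NanoTLZ, and without B3638 the value for i.v. TLZ was -0.61. Without A3688 the values were 1.19 and 1.03. B3638 also had the highest sum of 8 fibroblast markers, 6024 CPM, where the others had 996 to 3110 CPM and no marker was at 0. The part of fibroblasts in the *Nnmt* value was not tested.

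*Sirt1* encodes the nuclear NAD-dependent deacetylase of histones and transcription factors (ENSMUSG00000020063, minus strand of chr10:63319005-63381704 in mm10). It was at 18.9, 13.9 and 32.8 CPM in saline, at 13.1, 8.42 and 26.5 CPM in i.v. TLZ, and at 9.10, 14.2 and 11.8 CPM in NanoTLZ. NanoTLZ tumor C3669 lay just above saline tumor A3685, so the groups overlapped. The means were 21.8 ± 9.78 CPM in saline, 16.0 ± 9.36 CPM in i.v. TLZ and 11.7 ± 2.55 CPM in NanoTLZ (SD, n = 3 each). Its log2 ratio was -0.90 (SE 0.48, 95% interval -1.97 to 0.17) for NanoTLZ, the lowest value of a member against saline, with an adjusted p of 0.585 from edgeR. With i.v. TLZ it was -0.45 (SE 0.48). Without A3688 these values were -0.46 and -0.02.

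**Figure D2:**
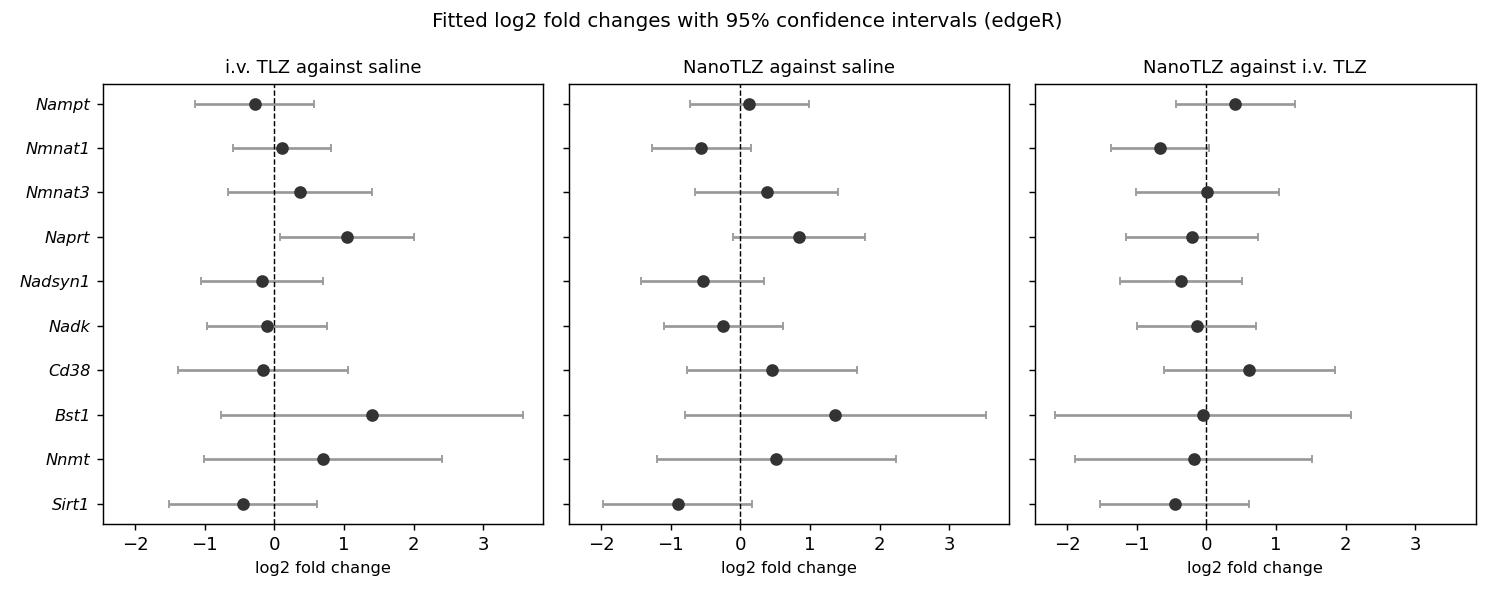
Fitted log2 fold changes (horizontal axis) of the 10 members in 3 comparisons, with points for the edgeR estimate and bars for its 95% confidence interval from all 9 tumors. The interval of *Naprt* in i.v. TLZ, 0.09 to 2.003, is the only one that leaves out 0, before any adjustment for the number of genes, and the intervals of *Bst1* are the widest.

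*Nampt* is a textbook target of the circadian clock, whose factors bind the E-box letters CACGTG, as does Myc. The E-box reads the same on both strands. RefSeq windows of 300 bases, from 250 before to 50 after a start (GRCm38.p6), were found for 7 of the 10 members, 9 windows in all. *Naprt*, *Bst1* and *Nnmt* had none. The E-box was in 2 of the 9 windows, those of *Sirt1* and of 1 of the starts of *Nadk*, and not in that of *Nampt*. It was in 7.15% of all 32851 windows. The *Sirt1* window held it at 115 and at 43 bases before the start, and 0.594% of all windows held at least 2. The *Sirt1* window lies at chr10:63338986-63339285 on the minus strand and the *Nadk* window at chr4:155563565-155563864 on the plus strand, with the E-box 40 bases before the start. They are shown 5′ to 3′ with the E-box in capitals. *Sirt1* had the lowest log2 ratio of a member for NanoTLZ against saline, and *Nadk* the highest level. The letters are a description of these windows, and binding was not measured. A relation of the E-box to the level or the log2 ratio of a gene was not tested.
Sirt1: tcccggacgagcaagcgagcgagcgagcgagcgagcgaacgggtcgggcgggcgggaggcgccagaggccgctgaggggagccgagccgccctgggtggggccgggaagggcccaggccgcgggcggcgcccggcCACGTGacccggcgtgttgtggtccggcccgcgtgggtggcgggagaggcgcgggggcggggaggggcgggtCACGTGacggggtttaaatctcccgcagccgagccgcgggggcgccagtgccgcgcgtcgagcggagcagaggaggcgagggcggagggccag
Nadk: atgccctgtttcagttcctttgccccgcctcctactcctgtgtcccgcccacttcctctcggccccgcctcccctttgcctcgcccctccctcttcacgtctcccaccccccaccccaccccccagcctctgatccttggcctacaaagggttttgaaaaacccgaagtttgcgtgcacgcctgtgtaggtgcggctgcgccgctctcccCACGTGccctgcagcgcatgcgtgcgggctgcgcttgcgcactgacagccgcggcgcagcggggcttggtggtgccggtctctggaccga

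The genes most like a member were found as those with the smallest root mean square difference in log2 CPM over the 9 tumors, each gene centred on its own mean. This was done for the 3 members with the smallest unadjusted p in the comparison of both treated groups together with saline. For *Naprt*, whose own root mean square deviation was 0.53, they were *Ccdc159* at 0.21, *Dnase1l2* at 0.23 and *Slc26a6* at 0.26. For *Bst1*, with 1.88 of its own, they were *Cpxm2* at 0.37, *Slpi* at 0.42 and *Fcrlb* at 0.43. For *Sirt1*, with 0.61 of its own, they were *Ppil4* at 0.18, ENSMUSG00000085583, which has no symbol in the annotation, at 0.19, and *Reps1* at 0.19.

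*Ppil4* and *Reps1* lie on chromosome 10, as *Sirt1* does, at 55.5 and 45.3 Mb from it. Positions were therefore examined for all members, a step chosen after the values were seen. Of the 50 genes nearest in pattern to *Sirt1*, 35 were on chromosome 10 (70.0%), which holds 4.55% of the genes tested. The share was 62.0% for *Nmnat1* and 56.0% for *Nadk*, both on chromosome 4 with 6.50% of genes, and 34.0% for *Nampt* on chromosome 12 with 3.32%. It was between 2% and 10% for the other 6 members. Over all genes tested with a position, the median share was 10% and the 90th percentile 42.0%, so *Sirt1*, *Nmnat1* and *Nadk* lay above that percentile. The patterns of nearby genes are not independent of each other, and no test was made.

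The levels of the genes around these members were set beside theirs. *Sirt1* had 87 tested genes within 10 Mb on either side, and their median centred log2 CPM was highest in A3688, at 0.82, as was that of *Sirt1*, at 1.12. In B3700, the i.v. TLZ tumor highest for *Sirt1*, the values were 0.32 and 0.81. The mean of the treated tumors minus that of the saline tumors was -0.67 for *Sirt1* and -0.49 for the median of its neighbours, and for NanoTLZ alone it was -0.83 and -0.63. For *Nmnat1*, with 206 neighbours, NanoTLZ minus saline was -0.55 for the gene and -0.18 for the neighbours, while both treated groups minus saline were -0.22 and 0.01. For *Nadk*, with 157 neighbours, i.v. TLZ minus saline was -0.0070 for the gene and 0.25 for the neighbours, and NanoTLZ minus saline was -0.14 and -0.18. In B3684, *Nadk* was at -0.36 and its neighbours at 0.19. The 255 neighbours of *Naprt* had a treated minus saline difference of -0.02 where *Naprt* had 0.88, and the 95 neighbours of *Bst1* had -0.02 where *Bst1* had 2.32. These are differences of mean log2 CPM and not fitted fold changes. That of *Bst1* rests largely on A3688, where its centred log2 CPM was -4.94, against 0.11 in A3673 and 0.19 in A3685. Without A3688, the fitted log2 fold change of *Bst1* for both treated groups against saline was 0.84, and with it 1.39. The copy number of these regions was not measured.

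**Figure D3:**
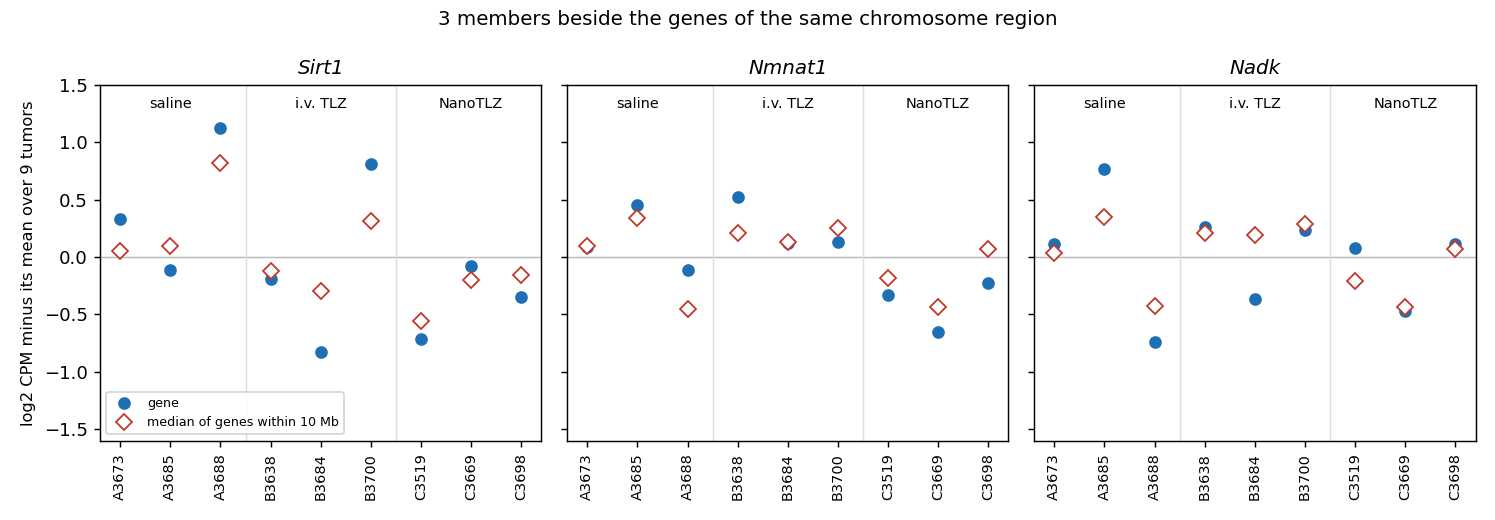
Log2 CPM centred on the mean over 9 tumors for *Sirt1*, *Nmnat1* and *Nadk* (filled circles) and for the median of the tested genes within 10 Mb on either side (open diamonds), by tumor. For *Sirt1* both marks are highest in A3688, at 1.12 and 0.82, and both are below 0 in all 3 NanoTLZ tumors.

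The wider NAD pathway was described from a list of 28 other genes by role. Of these, 27 were in the table and 24 passed the filter on low counts, and *Pnp* was not analysed here. *Tdo2*, *Acmsd* and *Nmrk2* had 33, 21 and 9 counts over all tumors and were not tested. None of the 24 was called in any comparison, with smallest adjusted p-values from edgeR of 0.417 for i.v. TLZ, 0.552 for NanoTLZ and 0.277 for both treated groups against saline. With DESeq2 on all 9 tumors none was called either, but the smallest adjusted p was nearer the threshold, at 0.0636 for i.v. TLZ and 0.0555 for both treated groups. That fit called 194 of 17367 genes for i.v. TLZ and 273 of 17851 genes for both treated groups. Their median log2 ratio was 0.06 with i.v. TLZ and 0.25 for NanoTLZ, with 14 of 24 above 0 in each. The unadjusted p was under 0.05 for 2 genes of the 24 with i.v. TLZ, both lower, for 3 with NanoTLZ and for 4 with both treated groups, against 10.4%, 8.99% and 13.1% of all genes.

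*Nadk2*, the mitochondrial NAD kinase, had the smallest p of the list. It was at 29.5, 16.7 and 45.8 CPM in saline, at 10.7, 12.2 and 12.01 CPM in i.v. TLZ, and at 14.8, 13.4 and 17.3 CPM in NanoTLZ. NanoTLZ tumor C3698 lay just above saline tumor A3685, so the NanoTLZ and saline groups overlapped. Saline tumor A3688 was the highest, and the log2 ratios of *Nadk2* without it are not given here. For *Nadk2*, the log2 ratio was -1.40 (SE 0.38, 95% interval -2.24 to -0.55) with i.v. TLZ, with an unadjusted p of 0.00415, and -1.02 (SE 0.38) for NanoTLZ, with adjusted p-values of 0.417 and 0.552 from edgeR. The cytosolic kinase *Nadk*, by comparison, had -0.11 and -0.24. The difference between the kinases was not tested.

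*Nnt*, the proton-driven transhydrogenase that makes mitochondrial NADPH from NADH, was at 30.7, 29.5 and 40.2 CPM in saline, at 51.4, 33.0 and 48.3 CPM in i.v. TLZ, and at 62.0, 55.6 and 59.6 CPM in NanoTLZ. All the NanoTLZ tumors lay above all tumors of both other groups, where 7.82% of all genes tested lay above saline and 3.2% above i.v. TLZ in this way. Its log2 ratio was 0.82 (SE 0.27) for NanoTLZ, with an unadjusted p of 0.0116 and an adjusted p of 0.552 from edgeR. The annotation holds *Nnt* under another identifier too, with 3339 shared exon bases, and its level is uncertain where reads could be split. *Slc25a51*, the mitochondrial NAD carrier and the gene of this role with the highest CPM, was between 112 and 167 CPM in the 9 tumors, with log2 ratios of 0.07 (SE 0.24) and -0.19 (SE 0.24).

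*Parp1*, the main nuclear consumer of NAD after DNA damage and the target of Talazoparib, was at 172, 135 and 156 CPM in saline, at 86.1, 52.3 and 115 CPM in i.v. TLZ, and at 121, 91.7 and 127 CPM in NanoTLZ. All 6 treated tumors lay below all 3 saline tumors, which held for 2.66% of all genes tested. For *Parp1*, the log2 ratio was -0.87 (SE 0.31) with i.v. TLZ, -0.45 (SE 0.31) for NanoTLZ and -0.66 (SE 0.26) for both, with an adjusted p of 0.347 from edgeR for the last. *Parp2*, the second target, had values of -0.17 (SE 0.35) and -0.13 (SE 0.35).

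*Aox1*, an aldehyde oxidase that acts on nicotinamide derivatives, was at 32.9, 11.7 and 28.5 CPM in saline, at 40.0, 49.7 and 25.8 CPM in i.v. TLZ, and at 51.5, 35.3 and 60.4 CPM in NanoTLZ. All the NanoTLZ tumors lay above saline, where 7.82% of all genes tested did so. The margin was small, with C3669 at 35.3 CPM and A3673 at 32.9 CPM. The log2 ratio for NanoTLZ was 1.01 (SE 0.42), with an unadjusted p of 0.0371 and an adjusted p of 0.552 from edgeR. In the de novo route the gene with the highest CPM was *Afmid*, a formamidase, with a log2 ratio of 0.89 (SE 0.62) with i.v. TLZ and 0.21 (SE 0.61) for NanoTLZ. It shares exon bases with *Tk1* on the opposite strand, and its counts are uncertain there. In the salvage of ribosides, *Nt5e* (CD73, an ectonucleotidase) was at 107 to 465 CPM in saline and 137 to 266 CPM in the treated tumors, with values of -0.70 (SE 0.48) and -0.42 (SE 0.48).

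**Figure D4:**
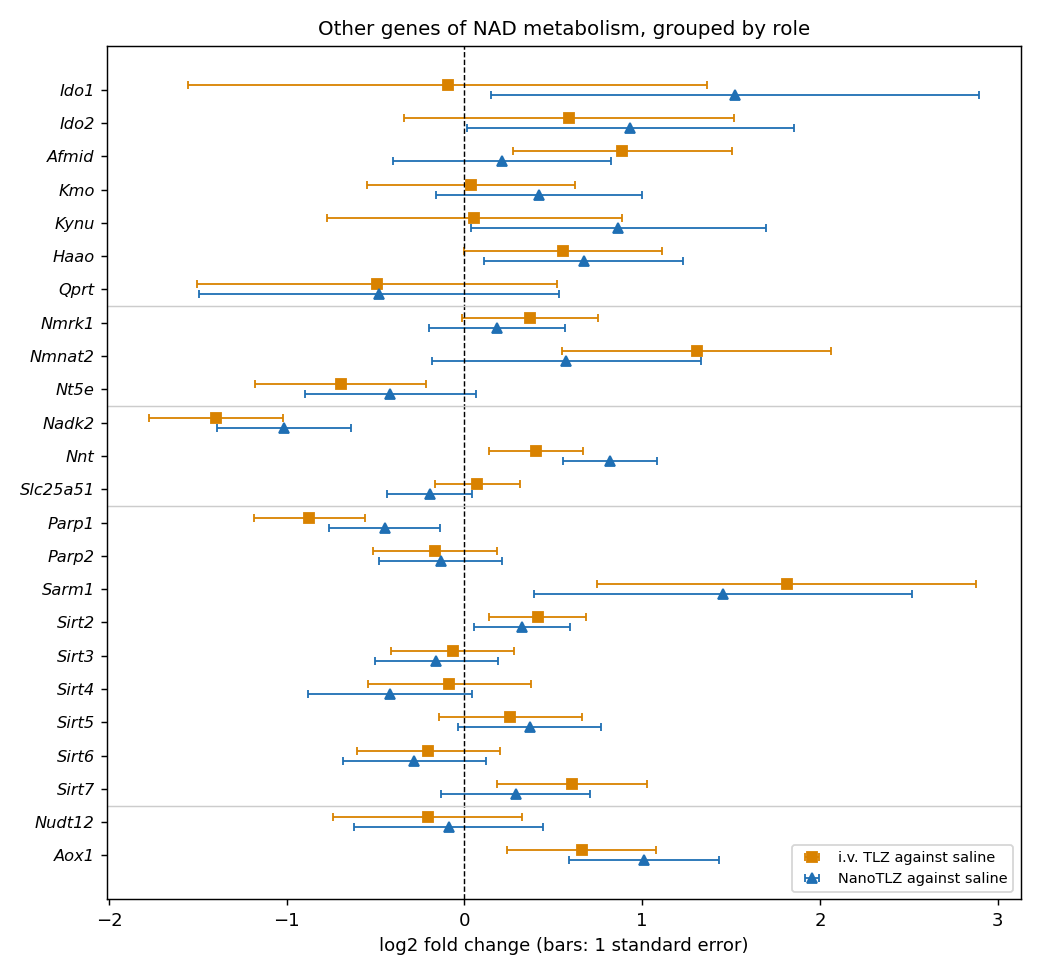
Fitted log2 fold changes (horizontal axis) against saline of the 24 other tested genes of NAD metabolism, with bars of 1 standard error, squares for i.v. TLZ and triangles for NanoTLZ. Grey lines separate the roles (de novo synthesis, riboside salvage, mitochondrial genes, consuming enzymes, breakdown), and *Nadk2* lies lowest in both, at -1.40 and -1.02.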

How the data were processed

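RNA of 9 tumors, 3 per group by their labels, was measured. The table the authors deposited holds unnormalized counts of reads on each gene, made by Novogene. The submitters' processing notes name TopHat2, DESeq2 and mm10, and the counting program, annotation and strand setting are not given in the sources used here. Symbols, positions and exon lengths came from GENCODE M21 of GRCm38, in which 34490 of 35275 identifiers were found and 785 were not. Depth was 17538380 to 21194980 counts per tumor, and a floor of 3 counts covers counting error only.

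Genes were kept with edgeR's filterByExpr (minimum count 10, minimum total 15), scaled by TMM and fitted with 1 coefficient per group to all 9 tumors (edgeR 4.0.16 and limma 3.58.1 in R 4.3.3). A run on simulated counts used larger changes than those of the members and sets no limit of detection for them. Comparisons were i.v. TLZ, NanoTLZ and the mean of both against saline, and NanoTLZ against i.v. TLZ. P-values were adjusted by Benjamini-Hochberg. Log2 CPM used a prior count of 2. Python 3.11.15, numpy 2.4.6, pandas 2.3.3 and matplotlib 3.10.9 were used. Tumors were separate, but no batch is labelled, and p-values measure the spread between these tumors.

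The members and gene lists were chosen with earlier results of these data known. Named were all members, and of the other list the gene of each role with the highest mean CPM, genes with treated tumors all on 1 side of saline and genes with an unadjusted p under 0.05. The nearest genes in pattern were named for 3 members. Marker lists and *Parp1*, *Parp2*, *Brca1* and *Trp53* were added as checks. Alternatives were DESeq2 1.42.0 on all tumors or the groups compared, edgeR on the latter, upper quartile and RLE scaling, other filters, robust dispersion and leaving out each tumor. The comparison of a member with genes within 10 Mb was added after values were seen.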

Additional observations from a re-analysis of the deposited data

How the results depend on the processing

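No member was called under any alternative, and the smallest adjusted p that a member reached was 0.193, for *Naprt* with both treatments against saline. With DESeq2 on all 9 tumors, 17367 genes were tested for i.v. TLZ, 15449 for NanoTLZ and 17851 for both treatments. The number of genes called over all genes moved. For i.v. TLZ it was 5 without a filter on low counts, 194 with DESeq2 on all 9 tumors and 92 with DESeq2 on the groups compared, against 0. For NanoTLZ it was 6, 110 and 171 in the same order, 0 with edgeR on the groups compared and 0 to 3 with 1 tumor left out, against 1. For NanoTLZ against i.v. TLZ it was 3 and 21 with DESeq2, against 0. For both treatments it was 33 without a filter, 1 with at least 10 counts in every tumor, 273 with DESeq2 and 0 to 18 with 1 tumor left out, against 3. The cause was not tested.

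Directions of members turned with 1 tumor left out in these log2 fold changes, given as lowest and highest. For i.v. TLZ against saline they were *Nampt* -0.74 to 0.020, *Nmnat1* -0.037 to 0.28, *Nadsyn1* -0.39 to 0.28, *Nadk* -0.40 to 0.31, *Cd38* -0.58 to 0.51 and *Nnmt* -0.61 to 1.19. For NanoTLZ against saline they were *Nampt* -0.073 to 0.46 and *Nadk* -0.52 to 0.18. For NanoTLZ against i.v. TLZ they were *Nmnat3* -0.26 to 0.22, *Naprt* -0.58 to 0.069, *Nadk* -0.31 to 0.047, *Bst1* -0.46 to 0.92, *Nnmt* -0.62 to 1.13 and *Sirt1* -0.76 to 0.14. For both treatments against saline they were *Nampt* -0.31 to 0.24, *Nadsyn1* -0.56 to 0.11, *Nadk* -0.46 to 0.24, *Cd38* -0.26 to 0.82 and *Nnmt* -0.043 to 1.11. With upper quartile scaling, *Nampt* was 0.010 for both treatments. No other alternative turned a member. No paired analysis was made, because each sample is a different tumor and the labels give no pairing between groups. No limit of detection was measured for 3 tumors a group.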

Other observations

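Some of the other members were set beside their nearest genes in pattern as well, a choice made after values were seen. *Nnmt* was nearest to *Ctsk*, at a root mean square difference of 0.23 in centred log2 CPM over 9 tumors, then to *Tgfb1i1* at 0.32 and *Serpinf1* at 0.32, against 0.83 of its own. *Cd38* was nearest to *Prss30* at 0.23, *Pmaip1* at 0.25 and *Tlr1* at 0.27, against 0.75 of its own. *Nmnat1* was nearest to *Wrap73*, *Zfp46* and *Arhgef16*, which lie on chromosome 4 as it does, at 4.68, 13.2 and 4.81 Mb.

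Among pairs of members, *Nadk* and *Nmnat1* were nearest, with a difference of 0.35, and *Bst1* and *Sirt1* farthest, with 2.29. These values describe 9 tumors and were not tested.

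The 7 skeletal muscle markers summed to 29.9, 196 and 732 CPM in saline tumors A3673, A3685 and A3688 and 4.54 to 32.2 CPM in the treated tumors, and all 6 treated tumors lay below saline for 6 of the 7, where 2.66% of all genes tested did so.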
